A study of Caenorhabditis elegans with 9 samples.

Results

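The oac genes encode homologs of O-acyltransferases in the nematode Caenorhabditis elegans, and their RNA was followed in worms treated with 3 different RNA interference (RNAi) constructs. Members were chosen by a rule on names, with earlier results of these data known. The rule took every gene of the count table whose name in the WBcel235 annotation begins with oac- and a number. This gave 56 genes of 46748 in the table, all annotated as protein coding. Of these, 24 passed the filter on low counts and are called measured below, and 32 did not.

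Acyltransferases of this family are membrane proteins with many membrane-spanning segments that move an acyl group from a donor to a hydroxyl group of an acceptor, and bacterial relatives acetylate cell-surface sugars in this way. In C. elegans the best known relatives carry other names. NRF-6 and NDG-4 were found through worms resistant to the drug fluoxetine, RHY-1 restrains the hypoxia-inducible factor HIF-1, and BUS-1 affects the cell surface that bacteria adhere to. The family is large in nematodes, and no acyl acceptor is given here for any single oac product.

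The 9 libraries came from N2 (wild-type) whole hermaphrodites aged 5 days, 3 for each construct. H28O16.1 is the sequence name of atp-1, the alpha subunit of mitochondrial ATP synthase. B0395.3 belongs by annotation to the carnitine O-acyltransferases, a family unrelated to the oac genes. L4440 is the empty feeding vector, and the labels name no strain other than N2. The labels do not state which stretch of each gene a construct carried, nor whether libraries of 1 group were grown as separate cultures. The p-values below therefore rest on a spread that could be technical.

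The libraries held 31236614 to 40218034 counts in H28O16.1, 34805871 to 40990685 in B0395.3 and 37279334 to 40227801 in L4440. The atp-1 mRNA stood at 66.9 to 75.4 CPM (counts scaled to a common library total, with TMM factors) in H28O16.1 against 1864 to 2003 CPM in L4440. The B0395.3 mRNA stood at 12.5 to 16.5 CPM in the libraries treated against it, 23.6 to 28.4 CPM in H28O16.1 and 32.3 to 35.6 CPM in L4440. Every listed marker of intestine, muscle, hypodermis, pharynx, neurons, germ line, sperm and early embryo had counts in some library. The summed level of the 6 early embryo markers was 3.87 to 4.08 CPM in H28O16.1, 109 to 114 CPM in B0395.3 and 91.1 to 95.1 CPM in L4440. That of the 5 intestine markers was 14030 to 15400 CPM in H28O16.1, 8297 to 8823 CPM in B0395.3 and 11920 to 12300 CPM in L4440. The part of these shifts in the oac values was not tested, and in whole worms fewer cells of a type and less RNA per cell cannot be told apart.

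Together the 56 oac genes made up a small and uneven share of the RNA. Their summed level was 107.0, 107.5 and 98.6 CPM in the H28O16.1 libraries, 59.93, 56.02 and 62.98 CPM in the B0395.3 libraries, and 66.1, 66.0 and 66.1 CPM in the L4440 libraries. The H28O16.1 sums lay above all others, and the B0395.3 sums lay below all L4440 sums. A group of 5 members, oac-14, oac-6, oac-59, oac-46 and oac-57, held 80.8% ± 1.22 (SD, n = 3) of the family's CPM in H28O16.1, 73.9% ± 0.903 in B0395.3 and 75.9% ± 0.646 in L4440. The largest single shift was that of oac-14, which held 34.8% ± 4.82 of the family's CPM in H28O16.1, 14.6% ± 0.964 in B0395.3 and 17.7% ± 0.651 in L4440. Without oac-14 the family still summed to 64.6 to 70.3 CPM in H28O16.1, against 48.0 to 54.4 CPM in B0395.3 and 53.9 to 54.7 CPM in L4440. These sums are a description and were not tested.

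**Figure D1:**
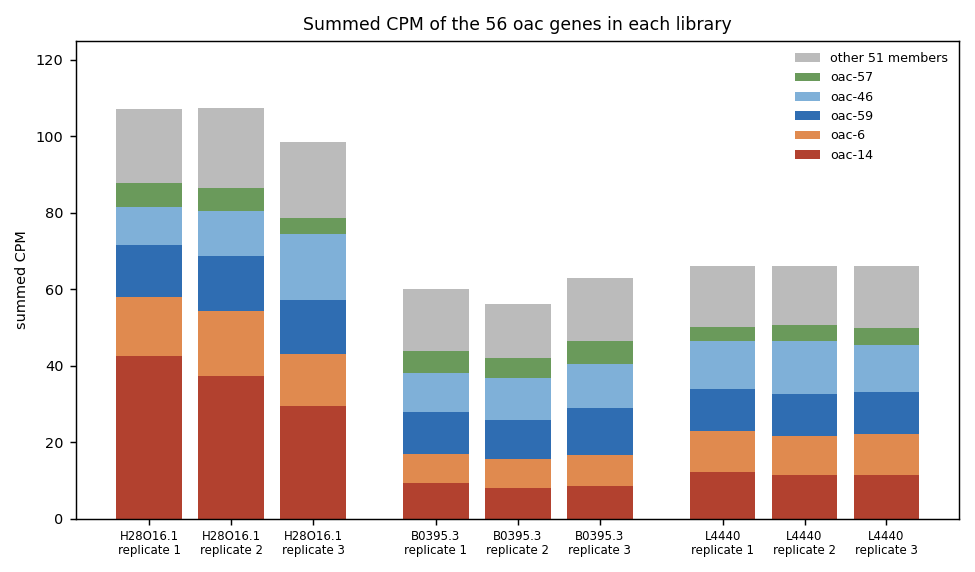
Summed CPM of the 56 oac genes in each of the 9 libraries, as stacked bars with the 5 highest members in colour and the other 51 in grey. The H28O16.1 bars reach 98.6 to 107.5 CPM, and most of their extra height over the B0395.3 and L4440 bars lies in the oac-14 segment.

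Most oac genes were weakly expressed. On a scale per length, as CPM per kilobase of exon, the median measured member stood at 0.573 in H28O16.1, 0.356 in B0395.3 and 0.394 in L4440, where the median of all genes that passed the filter stood at 6.91, 7.39 and 7.49. On this per-length scale 7 members exceeded 1 in H28O16.1, and 6 did so in B0395.3 and in L4440. In L4440 the order of levels per length began with oac-46 at 5.36 ± 0.394 (SD, n = 3), oac-14 at 5.22 ± 0.193, oac-59 at 4.92 ± 0.0467 and oac-6 at 4.76 ± 0.207. The libraries of oac-46 overlapped with those of oac-14, and those of oac-59 with those of oac-6, while the lowest oac-14 library lay above the highest oac-59 library. A gap followed down to oac-57 at 1.93 ± 0.185 and oac-20 at 1.35 ± 0.0727. In H28O16.1 the order was opened by oac-14 at 16.2 ± 2.88, with oac-6 at 6.89 ± 0.804 and oac-59 at 6.34 ± 0.215 behind it, which overlapped. In B0395.3 it was opened by oac-59 at 5.00 ± 0.511 and oac-46 at 4.55 ± 0.272, which overlapped, and oac-14 came in the third place at 3.87 ± 0.290. The lowest measured member of L4440 was oac-12, at 0.0226 ± 0.0210 CPM per kilobase.

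**Figure D2:**
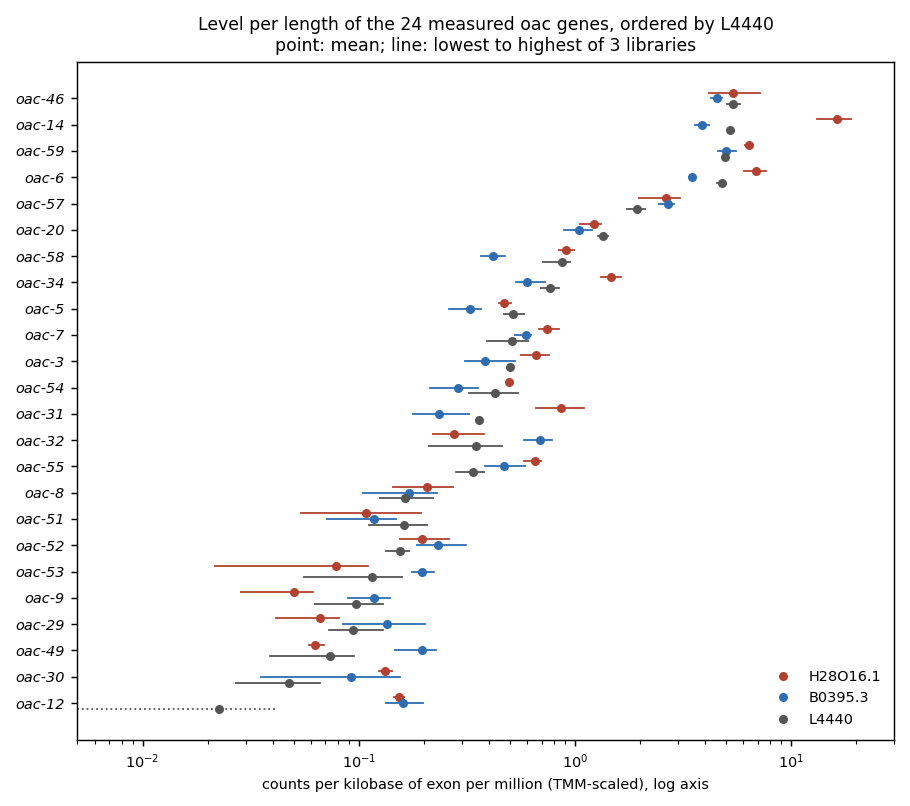
Level per length of the 24 measured oac genes (TMM-scaled CPM per kilobase of exon, log axis), with 1 row per gene ordered by its L4440 mean. Points are group means and lines run from the lowest to the highest of 3 libraries, dotted where the lowest library had 0 counts. Levels span from 5.36 (oac-46) to 0.0226 (oac-12) in L4440, and oac-14 in H28O16.1 stands apart at 16.2.

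The measured members were spread unevenly over the chromosomes. Chromosome I carries 15 members, of which 2 were measured (oac-9 and oac-34), and 13 of the 32 members under the filter lie there. Chromosome V carries 21 members with 12 measured, chromosome IV 13 with 6, chromosome II 6 with 3, and chromosome X only oac-14. Of the 24 measured members, 18 (75%) passed the test in at least 1 of the 3 comparisons, against 73.3% of all genes tested, and 6 (oac-8, oac-20, oac-29, oac-46, oac-51 and oac-52) passed in none.

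The first comparison, H28O16.1 RNAi over L4440, asks what depletion of the atp-1 mRNA does to the oac transcripts. Of the 24 measured oac genes, 10 rose, 0 fell and 14 did not pass (edgeR quasi-likelihood test, with p adjusted over all 14622 genes tested and called under 0.05). Per length, the highest members that rose were oac-14, oac-6 and oac-59, and the largest folds were those of oac-12, oac-14 and oac-30. Over all genes tested 57.6% were called, 26.3% higher and 31.2% lower, so the members' share called (41.7%) was below that of all genes and their share called higher (41.7%) was above it. The median log2 fold change was 0.31 over the measured members and -0.0042 over all genes tested. A member that is low in L4440 could pass the filter through the libraries in which it was higher, so these shares describe the measured members and not the family. At an unadjusted p under 0.05, 10 members were higher and 1 lower, against 28.7% higher and 32.9% lower of all genes. DESeq2 called 8 higher and 0 lower, and 52.6% of all genes in either direction. The summed intestine markers, nearly all of them the yolk protein gene vit-2, were also higher in H28O16.1 and the embryo markers lower, by the values above. Of the 5 intestine markers 3 were called higher, ges-1 was called lower (log2 fold change -0.33) and act-5 did not pass. The part of these markers in the rises was not tested.

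The highest member per length in H28O16.1 was oac-14 (WBGene00008602), a minus-strand gene of chromosome X (10139372 to 10142013, WBcel235) with 2 annotated transcripts. Its level was 42.4, 37.3 and 29.6 CPM in H28O16.1 and 12.2, 11.5 and 11.4 CPM in L4440. Every H28O16.1 library lay far above every L4440 library, and the H28O16.1 libraries were more spread than the L4440 ones. The rise was 3.11-fold (log2 fold change 1.64, SE 0.11, edgeR adjusted p = 4.37e-08).

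Members of similar level in L4440 rose less. On chromosome V (16302717 to 16306159), oac-6 stood at 15.6, 16.9 and 13.4 CPM in H28O16.1 and at 10.84, 10.03 and 10.80 CPM in L4440 (log2 fold change 0.53, SE 0.08, edgeR adjusted p = 0.000133). On chromosome IV, oac-59 stood at 13.6, 14.5 and 14.3 CPM in H28O16.1 and at 10.84, 11.02 and 11.03 CPM in L4440 (log2 fold change 0.36, SE 0.08, edgeR adjusted p = 0.00114). Neither gene had overlapping groups, and both changes were small beside that of oac-14. The abundant gene C42C1.8 covers 3.82% of the exon bases of oac-59 on the opposite strand and stood at 217 ± 4.57 CPM in H28O16.1 and 206 ± 1.801 CPM in L4440, and the library kit does not mark strand.

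A further 3 members, all below 1 CPM per kilobase in L4440, rose by 0.95 to 1.24 on the log2 scale. On chromosome I (11342085 to 11347288), oac-34 stood at 2.66, 2.95 and 3.30 CPM in H28O16.1 and at 1.403, 1.711 and 1.517 CPM in L4440 (log2 fold change 0.95, SE 0.15, edgeR adjusted p = 0.000145). On chromosome V, oac-31 stood at 1.52, 2.54 and 1.91 CPM in H28O16.1 and at 0.825, 0.802 and 0.860 CPM in L4440 (log2 fold change 1.24, SE 0.22, edgeR adjusted p = 0.00036). Also on chromosome V (3761139 to 3766315), oac-55 stood at 1.31, 1.51 and 1.57 CPM in H28O16.1 and at 0.853, 0.775 and 0.632 CPM in L4440 (log2 fold change 0.96, SE 0.20, edgeR adjusted p = 0.00119). In all 3 genes the groups were fully separate.

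The largest fold belonged to a gene near the limit of detection. The raw counts of oac-12 were 12, 9 and 12 in the H28O16.1 libraries and 0, 3 and 2 in the L4440 libraries, or 0.314, 0.282 and 0.294 CPM against 0, 0.0802 and 0.0506 CPM (log2 fold change 2.66, SE 0.53, edgeR adjusted p = 0.000717). The groups were separate, but the L4440 level rests on 5 counts in all. The gene reached the filter's minimum in every H28O16.1 and B0395.3 library and in no L4440 library, so it could enter the test only through groups in which it was higher. The log2 fold change ran from 2.15 to 3.35 over the alternative settings, with adjusted p between 3.88e-05 and 0.00352. At this locus (chromosome V, 4329039 to 4332550) the gene D2063.1 covers 2.33% of the exon bases of oac-12 on the opposite strand, and stood at 1.01 ± 0.262 CPM in H28O16.1 and 0.650 ± 0.162 CPM in L4440.

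The remaining rises were oac-7 (log2 fold change 0.55), oac-57 (0.45) and oac-30 (1.45), of which oac-57 had overlapping groups. They did not pass under every alternative. The call of oac-7 was lost without H28O16.1 replicate 3, without L4440 replicate 2 and with DESeq2. That of oac-57 was lost without H28O16.1 replicate 1 or 2 and without L4440 replicate 1 or 2. The gene oac-30 had raw counts of 11, 8 and 11 in H28O16.1 and 2, 5 and 4 in L4440, and reached the filter's minimum in no L4440 library. Its call was lost without H28O16.1 replicate 1, without L4440 replicate 1 or 3 and with DESeq2.

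No measured member fell in H28O16.1, but that count changed without H28O16.1 replicate 3 and without L4440 replicate 2. The highest member per length in L4440, oac-46, stood at 10, 11.7 and 17.3 CPM in H28O16.1 and at 12.55, 13.98 and 12.19 CPM in L4440. The high value was that of H28O16.1 replicate 3, and without it 11 members were called, 9 higher and 2 lower, the falls being those of oac-46 and oac-51. Without L4440 replicate 2, oac-9 was called lower (log2 fold change -1.18). The share of all genes called was 58.1% without H28O16.1 replicate 3 and 52.2% without L4440 replicate 2, against 57.6% with all libraries. With all libraries oac-9 had raw counts of 6, 5 and 3 in H28O16.1 and 12, 6 and 10 in L4440 (log2 fold change -0.95, edgeR adjusted p = 0.0712). The libraries of the groups did not overlap for 11 of the 24 measured members, against 61.4% of all genes tested.

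**Figure D3:**
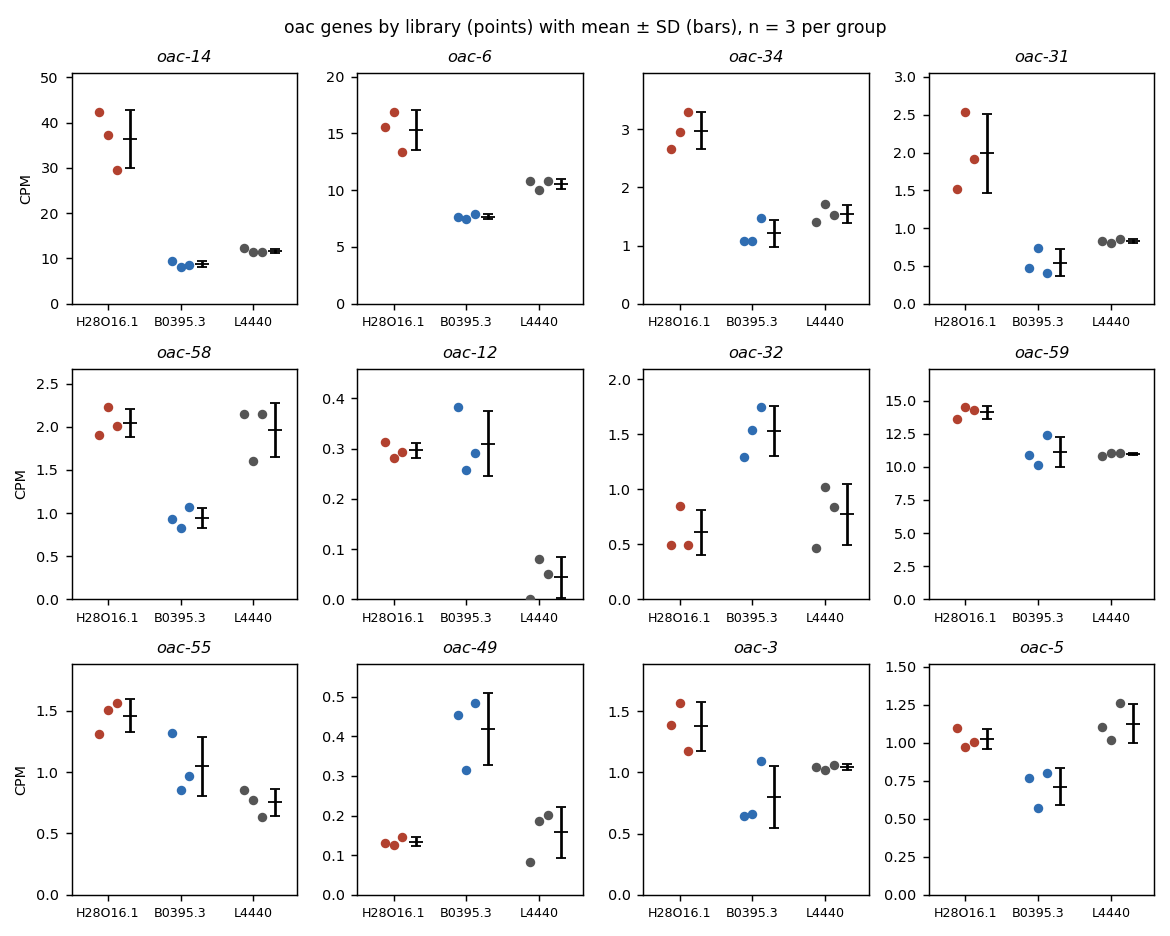
CPM by library (points) with the group mean ± SD (bars, n = 3) for the 12 oac genes with the smallest p in any comparison, on linear axes that start at 0 and differ between panels. The H28O16.1 points of oac-14 run from 29.6 to 42.4 CPM above both other groups, the B0395.3 points of oac-58 lie at 0.828 to 1.07 CPM below both, and those of oac-32 at 1.29 to 1.75 CPM above both.

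In the second comparison, B0395.3 RNAi over the same L4440 libraries, the treated gene is itself an acyltransferase, though of another family. Here 4 of the 24 measured members rose and 4 fell, while 16 did not pass. Over all genes tested 27.2% were called, 12.6% higher and 14.6% lower, and 33.3% of the measured members were called, 16.7% in each direction. The median log2 fold change was 0.05 over the measured members and 0.01 over all genes tested. The falls were those of oac-6, oac-14, oac-58 and oac-5, and the rises those of oac-57, oac-32, oac-12 and oac-49. The libraries did not overlap for 14 members, against 47.1% of all genes. Without B0395.3 replicate 2, 2 fell (oac-6 and oac-58), and without B0395.3 replicate 3, 2 rose (oac-12 and oac-49). The shares of all genes called were then 21% and 19.8%. Without H28O16.1 replicate 3, which shares the estimate of spread, oac-20 and oac-46 were called lower as well. The share of all genes called without that library was 34.1%.

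The largest fall was that of oac-58 on chromosome IV. It stood at 0.933, 0.828 and 1.07 CPM in B0395.3 and at 2.15, 1.60 and 2.15 CPM in L4440 (log2 fold change -1.05, SE 0.17, edgeR adjusted p = 0.000476). The groups were separate, and the call held under every alternative. In H28O16.1 the same gene stood at 1.91, 2.23 and 2.01 CPM, within the range of the L4440 libraries but for 1 library above it.

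The changes of oac-6 and oac-14 were smaller. The levels of oac-6 were 7.65, 7.48 and 7.88 CPM in B0395.3 against 10.84, 10.03 and 10.80 CPM in L4440 (log2 fold change -0.46, SE 0.09, edgeR adjusted p = 0.00182). Those of oac-14 were 9.35, 8.05 and 8.63 CPM in B0395.3 against 12.2, 11.5 and 11.4 CPM in L4440 (log2 fold change -0.43, SE 0.12, edgeR adjusted p = 0.0183). Both were lower in 3 of 3 libraries with no overlap, but the oac-14 call was lost without B0395.3 replicate 2 or 3 and without L4440 replicate 1, with adjusted p up to 0.0754. The fourth fall was oac-5, at 0.7653, 0.571 and 0.80 CPM in B0395.3 against 1.10, 1.02 and 1.26 CPM in L4440 (log2 fold change -0.65, SE 0.19, edgeR adjusted p = 0.0197). Its call was lost without B0395.3 replicate 2, without L4440 replicate 3 and with DESeq2. The intestine marker sum was lower in B0395.3 too, as was the muscle marker sum, at 269 to 316 CPM in B0395.3 against 474 to 577 CPM in L4440. Of the 5 intestine markers 3 (vit-2, ges-1 and act-5) were called lower and 2 (elt-2 and ifb-2) did not pass, and of the 5 muscle markers 3 were called lower and 2 did not pass. The pharynx marker sum was higher, at 46.5 to 52.7 CPM in B0395.3 against 31.1 to 35.1 CPM in L4440, with 3 of 5 called higher. Over all genes tested in this comparison, 12.6% were called higher and 14.6% lower. The part of these markers in the falls and rises was not tested.

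Among the rises, oac-32 on chromosome V was the highest per length after oac-57. It stood at 1.29, 1.54 and 1.75 CPM in B0395.3 and at 0.468, 1.02 and 0.835 CPM in L4440 (log2 fold change 0.97, SE 0.26, edgeR adjusted p = 0.0127). All B0395.3 libraries lay above all L4440 libraries, and the call was lost without B0395.3 replicate 3 (adjusted p = 0.063, and 4.35e-05 to 0.063 over the alternatives). For oac-57 the levels were 5.76, 5.08 and 5.96 CPM in B0395.3 and 3.632, 4.01 and 4.4 CPM in L4440 (log2 fold change 0.48, SE 0.15, edgeR adjusted p = 0.0286). That call was lost without B0395.3 replicate 1 or 3 and without L4440 replicate 1 or 2.

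The other rises were in rare transcripts. The counts of oac-12 were 16, 9 and 12 in B0395.3 and 0, 3 and 2 in L4440 (log2 fold change 2.74, SE 0.51, edgeR adjusted p = 0.00143). The counts of oac-49 were 19, 11 and 20 in B0395.3 and 3, 7 and 8 in L4440 (log2 fold change 1.39, SE 0.34, edgeR adjusted p = 0.00784). Neither gene had overlapping groups. Over the alternatives the log2 fold change of oac-12 ran from 2.21 to 3.42. The opposite-strand gene D2063.1, which overlaps oac-12, stood at 1.19 ± 0.00578 CPM in B0395.3 and 0.650 ± 0.162 CPM in L4440. DESeq2 gave oac-12 no adjusted p and did not call oac-49 (adjusted p = 0.0718, and 0.00745 to 0.0718 over the alternatives). Neither gene reached the filter's minimum in an L4440 library, and oac-49 did so in the B0395.3 libraries alone, so both could enter the test only through groups in which they were higher.

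**Figure D4:**
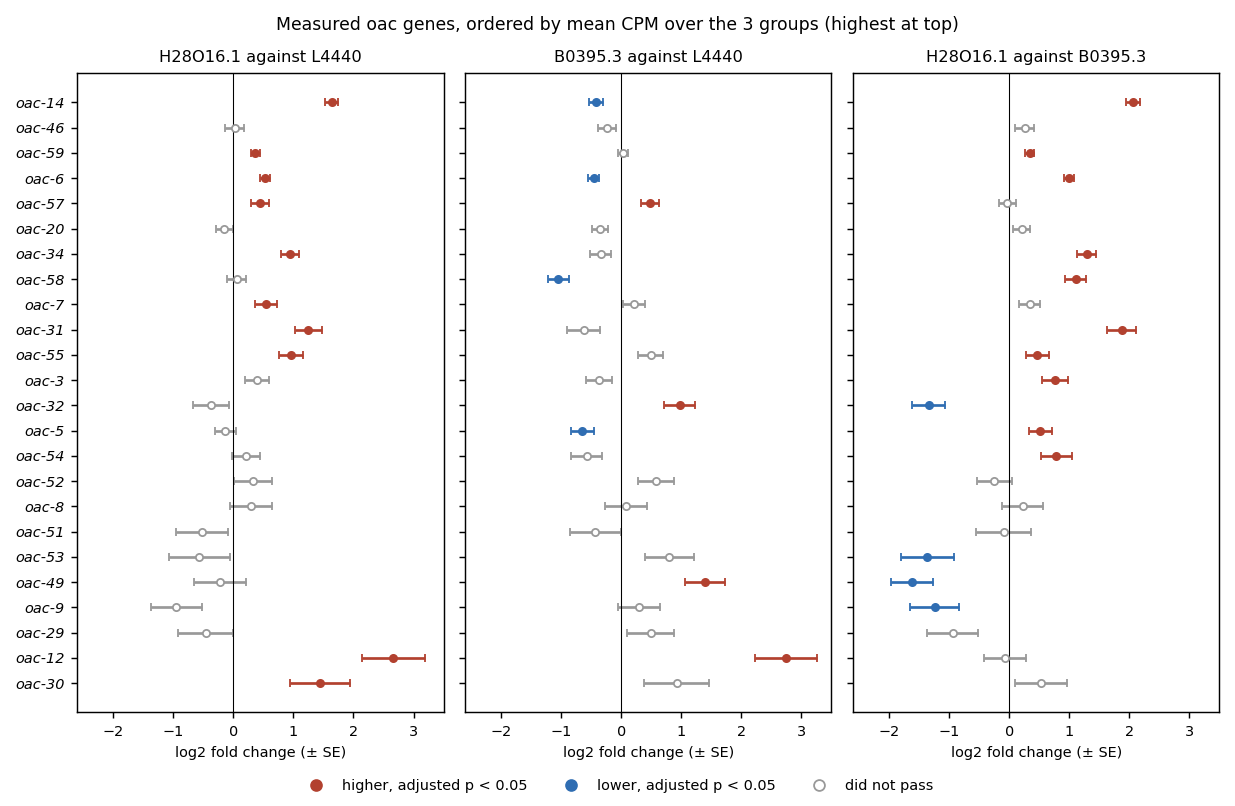
Log2 fold change (± SE, from the edgeR fit) of the 24 measured oac genes in the 3 comparisons, with 1 row per gene and the highest mean CPM at the top. Filled red points passed as higher, filled blue points as lower, and open points did not pass. The left panel has 10 red and 0 blue points, the middle panel 4 and 4, and the right panel 10 and 4.

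Since both comparisons above share the L4440 libraries, the RNAi groups were also tested against each other. In H28O16.1 against B0395.3, 10 of the 24 measured members were higher, 4 were lower and 10 did not pass. Over all genes tested 62.6% were called, 30.5% higher and 32.1% lower, and 58.3% of the measured members were called. The median log2 fold change was 0.30 over the measured members and -0.0022 over all genes. The libraries did not overlap for 15 members, against 66.8% of all genes.

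The members higher in H28O16.1 than in B0395.3 were led by oac-14, at 42.4, 37.3 and 29.6 CPM in H28O16.1 against 9.35, 8.05 and 8.63 CPM in B0395.3. This is a 4.18-fold difference (log2 fold change 2.06, SE 0.11, edgeR adjusted p = 4.96e-09), with no overlap. The gene oac-31 followed at 1.52, 2.54 and 1.91 CPM in H28O16.1 against 0.478, 0.742 and 0.412 CPM in B0395.3 (log2 fold change 1.87, SE 0.24, edgeR adjusted p = 1.67e-05). Then came oac-34 (1.29), oac-58 (1.10), oac-6 (0.99), oac-54 (0.78), oac-3 (0.76), oac-5 (0.51), oac-55 (0.47) and oac-59 (0.34), all log2 fold changes that passed. Of these, oac-58, oac-54, oac-3 and oac-5 had not passed in H28O16.1 against L4440. For oac-3 the levels were 1.38, 1.57 and 1.17 CPM in H28O16.1, 0.646, 0.657 and 1.09 CPM in B0395.3 and 1.05, 1.02 and 1.06 CPM in L4440, so that the third B0395.3 library lay apart from the other two, just above the L4440 ones. Without that library oac-3 was also called lower in B0395.3 than in L4440 (log2 fold change -0.68, edgeR adjusted p = 0.0462, and 0.0462 to 0.56 over the alternatives). The calls of oac-5, oac-54 and oac-55 were each lost under at least 1 alternative, DESeq2 among them. The opposite-strand gene C42C1.8, which overlaps oac-59, stood at 217 ± 4.57 CPM in H28O16.1 and 188 ± 2.29 CPM in B0395.3. Its part in the oac-59 value was not tested.

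The 4 members lower in H28O16.1 than in B0395.3 were oac-32, oac-49, oac-53 and oac-9. For oac-32 the levels were 0.496, 0.847 and 0.489 CPM in H28O16.1 against 1.29, 1.54 and 1.75 CPM in B0395.3 (log2 fold change -1.35, SE 0.27, edgeR adjusted p = 0.000728). The counts of oac-49 were 5, 4 and 6 in H28O16.1 against 19, 11 and 20 in B0395.3 (log2 fold change -1.62, SE 0.35, edgeR adjusted p = 0.00129). The values of oac-53 and oac-9 were -1.37 and -1.25, from at most 21 counts in a library. Since oac-49, oac-53 and oac-9 reached the filter's minimum in no H28O16.1 library, they could enter the test only through groups in which they were higher. Without H28O16.1 replicate 3, 2 lower members were left, oac-32 and oac-49, and no alternative ended the calls of that pair. Without B0395.3 replicate 1 the calls of oac-53 and oac-9 were lost too. The share of all genes called was 62.8% without H28O16.1 replicate 3 and 56.7% without B0395.3 replicate 1.

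Some close neighbours in the genome differed in which comparisons they passed, and others did not. On chromosome IV, oac-51 and oac-52 lie 955 bases apart on opposite strands with no gene between them, and neither passed in any comparison. On chromosome V, oac-31 (1538354 to 1541886) and oac-32 (1542442 to 1545783) lie 555 bases apart on the minus strand with no protein-coding gene between them. Their levels per length in L4440 overlapped, at 0.360 ± 0.0126 and 0.348 ± 0.126 CPM per kilobase, yet oac-31 was higher and oac-32 lower in H28O16.1 than in B0395.3. On chromosome IV, oac-59 (12293233 to 12301261), oac-57 (12304462 to 12307820) and oac-58 (12308293 to 12311697) lie on the minus strand in that order with gaps of 3200 and 472 bases. In B0395.3 against L4440, oac-57 rose by 0.48 and oac-58 had a log2 fold change of -1.05, while oac-59 stood at 0.03 and did not pass. On chromosome V, oac-5, oac-6 and oac-7 lie on the plus strand between 16292709 and 16314775. Between oac-5 and oac-6 there are 4 protein-coding genes, and between oac-6 and oac-7 there is 1. The log2 fold changes of oac-5, oac-6 and oac-7 in H28O16.1 against L4440 were -0.14 (not passed), 0.53 and 0.55. Differences between neighbours were not tested as such. How the counting treated reads that match more than 1 copy is not known here, so the split between neighbours is uncertain.

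The 32 members under the filter were close to silent in these worms. Every one had at least 1 count in some library, none had more than 10 counts in any, and 9 had at most 3 counts over all 9 libraries. In sum they had 117 counts in H28O16.1, 181 in B0395.3 and 100 in L4440. All 3 libraries of H28O16.1 had 0 counts for 12 of them, against 1 in B0395.3 and 8 in L4440. Detection over the whole table followed the same order. A library had counts for 18727 to 19285 genes in H28O16.1, 19912 to 20420 in B0395.3 and 19501 to 19642 in L4440. A count of 0 over a group allows a level of up to 0.0270 CPM in H28O16.1, 0.0254 CPM in B0395.3 and 0.0265 CPM in L4440 (3 counts over the group, counting error only). The highest totals were those of oac-48 with 21 counts in H28O16.1, 17 in B0395.3 and 13 in L4440, and of oac-24 with 14, 18 and 10. The 3 neighbours oac-43, oac-44 and oac-45 on chromosome I, 600 and 604 bases apart, had at most 1 count in a library each. The gene oac-39, chosen after its values were seen, had 0, 0 and 2 counts in H28O16.1, 5, 6 and 6 in B0395.3 and 0, 1 and 1 in L4440. With no filter on low counts it was called higher in B0395.3 than in L4440, and oac-22 was called higher in H28O16.1 than in L4440. That setting also called oac-46 lower in B0395.3 than in L4440. In H28O16.1 against B0395.3 it called oac-46 higher and oac-39 and oac-50 lower. Of the 56 members it called 11 in H28O16.1 against L4440, 10 in B0395.3 against L4440 and 16 in H28O16.1 against B0395.3. The shares called of all 24625 genes it tested were 36.2%, 17% and 39.2% in that order. The counts of oac-22 were 9, 3 and 2 in H28O16.1 and 3, 0 and 0 in L4440. Those of oac-50 were 2, 1 and 0 in H28O16.1 and 9, 1 and 7 in B0395.3. For both genes the libraries of the groups overlapped.

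RefSeq gives oac symbols to 4 further loci of the same build, annotated as pseudogenes and outside the naming rule. Of these, oac-18 had summed counts of 63 in H28O16.1, 121 in B0395.3 and 41 in L4440. It was higher in B0395.3 than in L4440 (log2 fold change 1.49, SE 0.29, edgeR adjusted p = 0.00173). The pseudogene oac-33 did not pass in any comparison, and oac-47 and oac-60 were under the filter.

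Relatives of the family outside the oac name were few and were read from the same fit. Over all genes tested, 57.6% were called in H28O16.1 against L4440, 27.2% in B0395.3 against L4440 and 62.6% in H28O16.1 against B0395.3. In H28O16.1 against L4440, 0 of 3 measured relatives (nrf-6, ndg-4 and rhy-1) passed, and bus-1 was under the filter. Here nrf-6 stood at 54.7 ± 2.49 CPM in H28O16.1 and 54.7 ± 0.704 CPM in L4440 (SD, n = 3). In B0395.3 against L4440, rhy-1, the restrainer of HIF-1, fell to 9.85 ± 0.193 CPM in B0395.3, against 16.8 ± 0.797 CPM in L4440 (log2 fold change -0.77, SE 0.10, edgeR adjusted p = 6.49e-05), and nrf-6 and ndg-4 did not pass. In H28O16.1 against B0395.3, ndg-4 was higher by 0.25 and rhy-1 by 0.60, and nrf-6 did not pass. The gene nrf-5, whose secreted product acts with NRF-6 and NDG-4, rose in H28O16.1 to 46.3 ± 11.6 CPM, against 28.8 ± 2.68 CPM in L4440 (log2 fold change 0.69, SE 0.14, edgeR adjusted p = 0.000929).

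Other acyltransferase families were set beside the oac genes by the same counts. Of 7 measured membrane-bound O-acyltransferase genes, which include the lysophospholipid acyltransferase genes mboa-6 and mboa-7, 1 rose and 5 fell in H28O16.1 against L4440, with a median log2 fold change of -0.41, where 26.3% of all genes rose and 31.2% fell. In B0395.3 against L4440, 0 rose and 1 fell (mboa-2, -0.14), where 12.6% of all genes rose and 14.6% fell. Of 13 measured acl genes, which encode acyltransferases of glycerolipid synthesis, 5 rose and 5 fell in H28O16.1, with acl-5 at -0.80 and acl-2 at 0.28, and 0 rose and 4 fell in B0395.3, with acl-12 at -0.36. The median log2 fold changes of the acl genes were 0.09 in H28O16.1 and -0.08 in B0395.3, each against L4440, and the shares of all genes are those just given. Differences between these families and the oac genes were not tested.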

How the data were processed

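The authors deposited whole-number counts per gene for 9 libraries, with 1 column per library and no normalization, per the file headers and the values. Tools listed in the submitters' processing notes are featureCounts 1.4.6-p4, STAR 2.4.1d and bcl2fastq 1.8.4, with the build WBcel235, and the counting settings were not known here. Libraries were made with a TruSeq RNA v2 kit, per the labels' protocols. A deposited RPKM table was not used here, since the counts serve every comparison. Names, exon lengths and positions came from Ensembl 115 of WBcel235.

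Genes with low counts were removed (filterByExpr, minimum count 10, or 0.258 CPM in at least 3 libraries), which left 14622 genes. Of the 24 oac genes left, 16 reached that level in all 9 libraries. The quasi-likelihood F-test of edgeR 4.0.16 (R 4.3.3, TMM scaling, two-sided) was run for each pair of groups from 1 fit of the 9 libraries. Benjamini-Hochberg adjustment covered every gene tested, and a call means an adjusted p below 0.05. The SE is the log2 fold change divided by the root of F. Alternatives were DESeq2 1.42.0, its size factors, no filter, a fit of the groups compared, and leaving out each library.

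Named are the members called in any comparison, with full values for the 12 with the smallest p. The members and the gene lists were chosen with earlier results of these data known. Replicate numbers follow record order. The labels state no pairing or batch, so none was modelled, and whether libraries were made in blocks is not known here. No sequences are shown.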

Additional observations from a re-analysis of the deposited data

How the results depend on the processing

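Each call was recomputed under 13 alternatives, except that DESeq2 gave oac-12 no adjusted p in B0395.3 against L4440 and that the fit of the groups compared did not test oac-30 in H28O16.1 against L4440 or oac-9 in H28O16.1 against B0395.3. Of the 10 members called in H28O16.1 against L4440, 7 passed under every one that gave a value, as did 3 of 8 in B0395.3 against L4440 and 9 of 14 in H28O16.1 against B0395.3. DESeq2 size factors in edgeR changed no call. In B0395.3 against L4440, DESeq2 called 5 members instead of 8, and 2 higher instead of 4. Of all genes it called 22.6% there instead of 27.2%. Leaving out 1 library at a time gave 0 to 2 members lower in H28O16.1 against L4440, where 52% to 58.1% of all genes were called. It gave 2 to 4 higher and 2 to 6 lower in B0395.3 against L4440, where 19.8% to 34.1% of all genes were called. In H28O16.1 against B0395.3 it gave 2 to 4 lower, where 56.6% to 62.8% of all genes were called. The cause was not tested. Over the 24 measured members, the log2 fold changes that changed sign when 1 library was left out had not passed with all libraries. In H28O16.1 against L4440 they ran from -0.0717 to 0.1334 for oac-58, from -0.51 to 0.0045 for oac-49 and from -0.253 to 0.1823 for oac-46. In B0395.3 against L4440 they ran from -0.0594 to 0.0875 for oac-59 and from -0.2027 to 0.3478 for oac-8. In H28O16.1 against B0395.3 they ran from -0.16 to 0.14 for oac-57, -0.17 to 0.11 for oac-12, -0.0019 to 0.4946 for oac-8, -0.0148 to 0.4203 for oac-46, -0.8557 to 0.2471 for oac-51 and -0.5217 to 0.0418 for oac-52.

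No paired fit was run because the labels give no replicate numbers, and numbers here follow record order. The rare members, with fewer than about 20 counts in a library, are limited by depth, so that a call missing there does not show an unchanged level.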
